A study of Mus musculus with 3 samples.

Results

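The Rhox genes are reproductive homeobox genes that lie side by side in a cluster on the mouse X chromosome. Described here are Rhox5, Rhox6, Rhox9, Rhox13, Rhox4e and Rhox2a, 6 genes whose probes were looked up by file name, transcript accession or older symbol on 3 microarrays of mouse embryonic stem (ES) cells. The reference annotation names 33 protein-coding Rhox genes. The 6 had 6 probes with 1 spot each, among 41174 probes in all, and the 6 genes all passed the filter on dim probes that left 17710 genes. The list was drawn up with the knockout differences of these genes known, so those differences are given as a description and carry no test.

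RNA was compared between Tet1 knockout and wild type cells. Tet1 is a dioxygenase that converts the methylated cytosine of DNA to oxidised forms. The knockout group (KO) held 2 samples, KO 4 and KO 22, and the wild type group (WT) held 1, with 1 array each, so WT has no replicate. All 3 samples were labelled as the V6.5 ES cell line of mixed 129 and C57BL6 background. Their medium held leukaemia inhibitory factor (LIF), they grew on irradiated feeder cells, and they were preplated before total RNA was extracted and labelled with the dye Cy3. The labels do not say whether KO 4 and KO 22 are separate lines, clones or cultures, nor which part of Tet1 is missing, and the short design text of the series speaks of mice. Any p-value below therefore reflects only how far these samples lie apart, possibly for technical reasons, and takes the lone WT array to vary like the KO arrays.

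Rhox proteins are homeodomain transcription factors, best known from the testis, epididymis, ovary and placenta. Rhox5, first described as Pem, was the founding member and is also made by cultured ES cells. Several genes of the cluster carry DNA methylation in the embryo proper, whereas the placental lineage expresses some of them, among them Rhox6 and Rhox9, first described as Psx1 and Psx2. Rhox2, Rhox3 and Rhox4 exist as tandem near-identical copies, so a probe may read more than 1 of them.

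Because Tet1 acts on methylated CG dinucleotides, the sequence just upstream of 4 of the genes is shown with every CG in capitals. Each is the 250 bases before the annotated start, from RefSeq on build GRCm38.p6, written 5′ to 3′ on the strand of the gene. All 4 genes are on the plus strand. The window of Rhox5 is chrX:37754358-37754607, that of Rhox13 chrX:38120590-38120839, that of Rhox2a chrX:37244742-37244991 and that of Rhox4e chrX:37557162-37557411. Rhox6 and Rhox9 had no entry in the promoter table used.
Rhox5: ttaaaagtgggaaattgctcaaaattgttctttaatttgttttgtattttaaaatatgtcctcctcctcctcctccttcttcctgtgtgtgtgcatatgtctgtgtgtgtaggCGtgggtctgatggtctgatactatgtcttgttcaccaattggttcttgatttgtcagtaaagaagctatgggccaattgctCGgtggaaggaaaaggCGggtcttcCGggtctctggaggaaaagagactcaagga
Rhox13: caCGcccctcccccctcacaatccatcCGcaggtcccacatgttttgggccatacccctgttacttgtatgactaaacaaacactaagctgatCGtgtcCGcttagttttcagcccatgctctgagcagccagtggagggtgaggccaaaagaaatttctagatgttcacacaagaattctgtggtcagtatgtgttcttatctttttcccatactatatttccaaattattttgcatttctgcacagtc
Rhox2a: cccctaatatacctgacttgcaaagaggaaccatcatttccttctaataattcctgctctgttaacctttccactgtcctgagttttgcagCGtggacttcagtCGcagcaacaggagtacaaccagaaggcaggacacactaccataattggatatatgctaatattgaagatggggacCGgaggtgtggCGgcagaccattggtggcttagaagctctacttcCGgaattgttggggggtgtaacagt
Rhox4e: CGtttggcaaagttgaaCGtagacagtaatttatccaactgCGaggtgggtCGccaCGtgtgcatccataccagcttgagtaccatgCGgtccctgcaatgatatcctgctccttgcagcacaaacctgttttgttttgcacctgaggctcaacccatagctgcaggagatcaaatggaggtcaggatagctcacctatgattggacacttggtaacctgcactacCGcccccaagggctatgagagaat

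The 4 windows lie within the quartiles of all promoter windows in their number of CG dinucleotides. Rhox5 has 4, Rhox13 has 4, Rhox2a has 5 and Rhox4e has 7. The median over 32851 promoter windows was 6, with quartiles of 2 and 16, and the 27 Rhox windows had a median of 4 and ran from 0 to 8. Fewer CGs than in Rhox5 or Rhox13 were found in 37.8% of all windows, fewer than in Rhox2a in 44.4% and fewer than in Rhox4e in 53.7%. Methylation itself was not measured on these arrays.

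4 short motifs were searched on both strands of the same windows. The Ets core CCGGAA occurred in Rhox5 on 1 strand and in Rhox2a on both strands of 1 overlapping stretch. It was in 8 of the 27 Rhox windows, namely Rhox5 and copies of Rhox2, and in 12% of all windows. The GC box GGGCGG occurred in Rhox4e. It was in 8 of the 27 Rhox windows, namely Rhox12 and copies of Rhox4, and in 32.7% of all. Copies of 1 gene share much of their sequence, so the 8 windows are not independent of each other in either case. The octamer ATGCAAAT was in 0 of the 27 Rhox windows and in 1.6% of all, and TATAAA was in 1 Rhox window, in none of the 4 shown and in 12.4% of all. No window shown held more than 1 of these motifs, so hits of different motifs did not overlap. The upstream sequences of different genes shared little, at 45.3% to 52.7% identity between the 4, while the copies of 1 gene were much closer. Rhox2a was 83.8% to 99.6% identical to 6 other copies of Rhox2 (median 91), and Rhox4e 62.3% to 92.3% identical to 6 other copies of Rhox4 (median 81.4).

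The targeted gene, the pluripotency transcripts and the array quality come first. The Tet1 probe read 214 on KO 4 and 195 on KO 22, against 721 on WT, in processed intensity, and both KO values lay below WT. Its mean log2 difference was -1.94, which missed the threshold of 0.05 (limma adjusted p = 0.053). No label or header says whether this probe lies inside the deleted part, so its value may be no check of the genotype. Pou5f1, Sox2 and Nanog, which define ES cells, were well above background on every array. Of 43379 spots that are not controls, 62.2% to 62.8% were well above background and 0 were saturated. The median difference between KO and WT over all genes was -0.03, and over genes the differences from WT had an SD of 0.53 on KO 4 and 0.52 on KO 22, beside 0.33 for KO 4 minus KO 22. All values below are the scanner's processed intensity of a spot, or its log2 relative to the array's 75th percentile. The number of arrays limits the precision, and levels of different probes are not set against each other.

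3 genes of the cluster, Rhox5, Rhox6 and Rhox9, were more than 2-fold higher on both KO arrays. Rhox13 and Rhox2a were lower on both, by less than 2-fold on 1 array each, with Rhox2a not well above background on KO 4, and Rhox4e lay within 1.22-fold of WT on both. Over all 17710 genes 1.45% were at least 2-fold higher on both KO arrays and 1.56% at least 2-fold lower, and the members were chosen from this same comparison, so nothing is read from the 3 of 6. In bulk RNA, fewer cells of a type and less RNA per cell cannot be told apart.

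**Figure D1:**
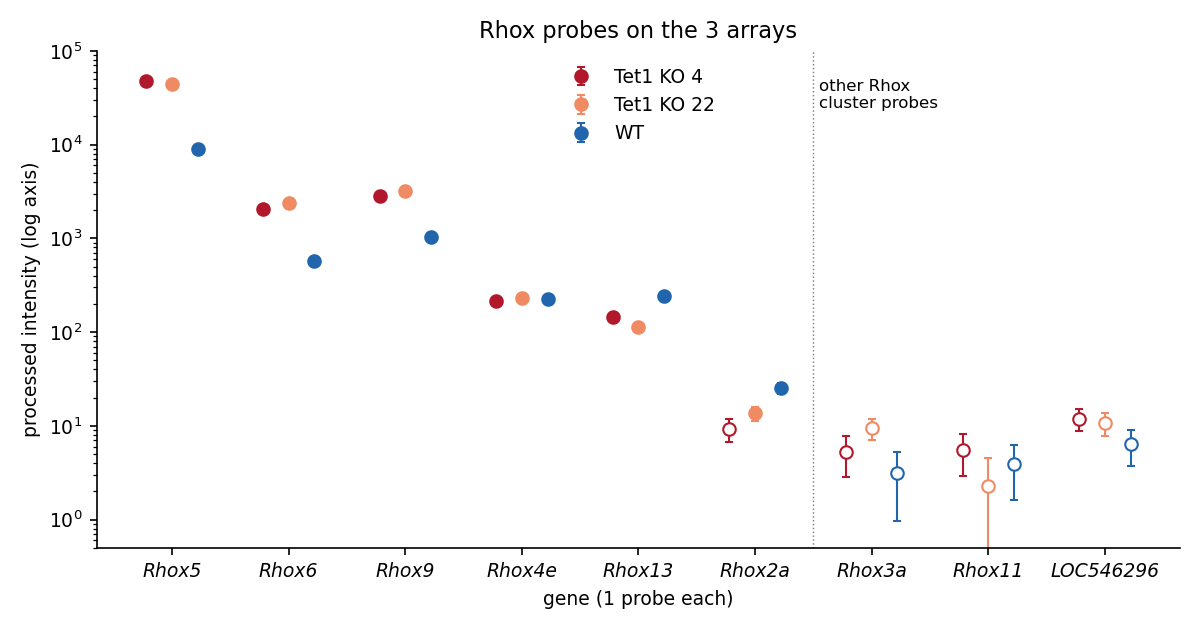
Processed intensity of each Rhox probe on a log axis, on KO 4, KO 22 and WT from left to right, with 1 array each. Bars are the scanner software's own error for the spot and not replicate error, and open circles mark spots not well above background. The KO points stand above WT for Rhox5, Rhox6 and Rhox9, and below it for Rhox13 and Rhox2a.

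The Rhox5 spot had an intensity of 47154 (KO 4) and 43712 (KO 22) in KO cells, against 8873 in WT cells. The scanner software's error of these spots was 4715, 4371 and 887. Both KO values stood far above WT and close to each other. The log2 difference from WT was 2.21 on KO 4 and 2.25 on KO 22, with a mean of 2.23 (4.69-fold), and the SD between the KO arrays was 0.03. Rhox5 ranked 20 from the highest of all genes by this mean. The files give no genome position for its probe, and it names only Rhox5.

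Rhox6 read 2067 (KO 4) and 2396 (KO 22) in KO cells, against 578 in WT cells. Both KO arrays lay clear of WT, with KO 22 the higher. The log2 differences were 1.64 and 2.00, with a mean of 1.82 (3.53-fold) and an SD between the KO arrays of 0.26. The probe lies at X:32922020-32922079 on the plus strand of build mm7, as the files give it.

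Rhox9, the other of the placental pair, read 2853 (KO 4) and 3193 (KO 22) in KO cells, against 1031 in WT cells. The KO values again lay close together and above WT. The log2 differences were 1.27 and 1.58, with a mean of 1.42 (2.68-fold) and an SD between the KO arrays of 0.22. Its probe lies at X:32993222-32993281 on the minus strand of mm7. In the 3 genes that stood above WT, the difference was in the order Rhox5, Rhox6, Rhox9 on each KO array.

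Rhox13, a germ cell member of the cluster that the file names 1700123J19Rik, had an intensity of 145 (KO 4) and 113 (KO 22) in KO cells, against 241 in WT cells. Both KO values lay below WT. The log2 differences were -0.93 and -1.14, with a mean of -1.04 (WT 2.05-fold above KO) and an SD between the KO arrays of 0.15. The files place the probe at X:33214060-33215370 on the plus strand of mm7, which is longer than a single probe. It was matched to Rhox13 by the older symbol alone and not by a transcript.

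Rhox2a, which stands for a gene with many copies and which the file names Rhox2, was close to the background. It had an intensity of 9.23 on KO 4, not well above background, and 13.6 on KO 22, against 25.3 on WT. WT was the brightest, and both arrays on which the spot was well above background, KO 22 and WT, read it faintly. The log2 difference of KO 22 from WT was -0.95. The difference of -1.66 on KO 4 rests on an intensity (9.23) below the lowest one well above background there (11.3). The size of this difference, and that of the mean of -1.30, is therefore uncertain. The probe lies at X:32005329-32005388 on the plus strand of mm7 and lists 2 Ensembl transcripts.

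Rhox4e had an intensity of 215 (KO 4) and 228 (KO 22) in KO cells, against 228 in WT cells. The scanner software's error of these spots was 21.7, 23 and 22.9. After scaling, KO 4 lay below WT and KO 22 almost level with it. The log2 differences were -0.29 and -0.05, with a mean of -0.17. The probe lies at X:32196478-32196537 on the plus strand of mm7, and lists the accessions of 4 genes, Rhox4a, Rhox4b, Rhox4e and Rhox4g, so its signal may come from any of them.

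The 3 other Rhox probes were not well above background on any array and allow no fold. Rhox3a, which shares its probe with Rhox3f, had an intensity of 5.29 (KO 4) and 9.42 (KO 22) in KO cells, against 3.12 in WT cells. Rhox11 had 5.54 and 2.30 on KO 4 and KO 22, against 3.93 on WT. LOC546296, described as similar to Rhox 7, was not matched to a current gene and had 12 and 10.7, against 6.37 on WT. Of 29 further Rhox genes listed, 2 (Rhox3a and Rhox11) were the named gene of a probe, and Rhox3f, Rhox4a, Rhox4b and Rhox4g are reached only through the shared probes of Rhox3a and Rhox4e.

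In the order of the genes along the X chromosome, Rhox5, Rhox6 and Rhox9 stood next to each other among the measured genes. Rhox2a and Rhox4e lay on one side of them, and Rhox13 on the other. Of the 18 neighbours, 15 were tested, and 7 were higher and 5 lower on both KO arrays, against 38% and 45.5% of all genes. At least 2-fold apart were 0 of them, against 1.45% higher and 1.56% lower over all genes, and limma called 0 (adjusted p below 0.05), with 3 at an unadjusted p below 0.05. Their median difference was 0.04. Slc25a43, a mitochondrial carrier gene, had the largest difference at 0.63 (limma adjusted p = 0.113), but -0.63 with normexp background correction, and Septin6, a filament-forming GTPase gene, had 0.50 (adjusted p = 0.145). Ube2a, a ubiquitin-conjugating enzyme gene, had 0.33 (adjusted p = 0.173), and Nkrf, a repressor of NF-kappaB, had -0.23 (adjusted p = 0.226). Normexp without 8 WT spots dimmer than their own background gave 0.43 for Slc25a43. Over the 484 X-linked genes without the Rhox genes the median was -0.04, as it was over the 14167 autosomal genes. Of these X-linked genes 1.65% were at least 2-fold higher and 2.89% at least 2-fold lower on both KO arrays, against 1.25% and 1.36% of the autosomal ones.

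**Figure D2:**
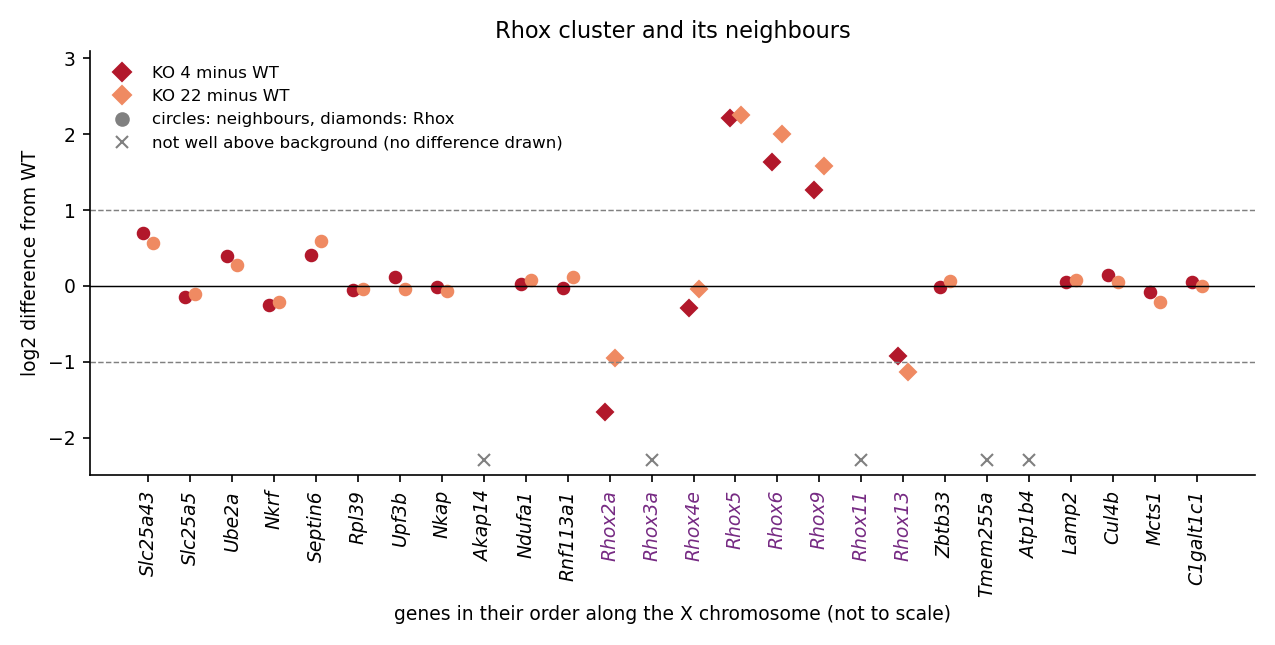
Log2 difference of each KO array from WT for the Rhox genes (diamonds) and their neighbours (circles), in their order along the X chromosome and not to scale, with 1 array each. Crosses mark genes with no probe well above background. Rhox5, Rhox6 and Rhox9 stand above 1 on both arrays, whereas the 15 neighbours lie between -0.23 and 0.63 in their mean difference.

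Across the array Rhox5 stood among a small number of genes with large differences on both KO arrays. The 5 genes nearest to it in the pair of differences, over the 3 arrays and 13407 genes, were Igf2, Vnn1, Kirrel, Septin4 and Wnt7a, at a Euclidean distance of 0.08 to 0.39 on the log2 scale. Igf2, an imprinted growth factor gene on chromosome 7, had 2304 and 2302 on KO 4 and KO 22, against 455 on WT. The search took genes well above background on all 3 arrays and left out predicted genes, clones and transcript names. Nearness rests on 2 numbers that share the WT array. Vnn1 and Wnt7a read only 11.1 and 11.7 on WT, little above the lowest intensity well above background there (9.75). The size of their differences, and so their nearness to Rhox5, is less certain.

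**Figure D3:**
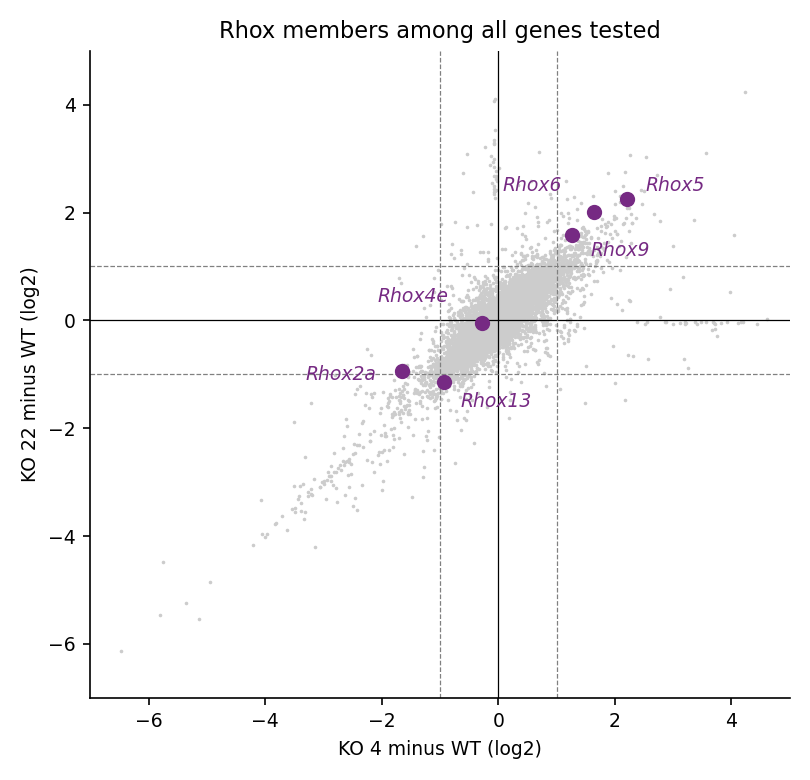
Log2 difference from WT on KO 4 (horizontal) and on KO 22 (vertical) for the 17710 genes tested in grey, with the 6 Rhox genes in purple. Dashed lines mark 2-fold. Rhox5, Rhox6 and Rhox9 lie beyond the 2-fold lines on both axes, and both axes share the single WT array.

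Other gene groups are given for context, from lists drawn up with earlier results of these data known. Over all genes limma called 0.0339% higher and 0.322% lower in KO, and at an unadjusted p below 0.05 these shares were 13.2% and 15%. The part of any of them in the Rhox differences was not tested. For the list counts that follow, 38% of all genes were higher and 45.5% lower on both KO arrays, by any size. At least 2-fold higher on both were 1.45% of all genes, and at least 2-fold lower 1.56%. Of 12 trophoblast markers tested, 11 were higher on both KO arrays and 1 lower, 3 of them at least 2-fold higher, with a median difference of 0.81. Their summed level relative to the 75th percentile was 235 on KO 4 and 208 on KO 22, against 131 on WT. The keratin genes Krt8 and Krt18 made up 91.5%, 90% and 89.9% of these sums, and without them KO 4 and KO 22 had 19.9 and 20.8, against 13.2 on WT. Limma called 0, and 7 higher and 1 lower had an unadjusted p below 0.05. Cited1, a transcription cofactor gene, had a difference of 1.47 (adjusted p = 0.0717). Eomes, Hand1 and Cdx2, transcription factor genes of trophoblast, had 1.27, 1.25 and 0.97 (adjusted p = 0.0973, 0.101 and 0.0973), but -0.75, -1.38 and -0.081 with normexp background correction. Normexp without the 8 WT spots dimmer than their own background gave 0.72, 0.44 and 0.70 for Eomes, Hand1 and Cdx2. Elf5, Tpbpa and Gcm1, markers of trophoblast and its derivatives, were not well above background on any array. Primitive endoderm markers lay mostly on the other side of WT. On both KO arrays 11 of 15 were lower, 6 of them at least 2-fold, and 3 were higher, with a median of -0.85. Their summed level was 19.9 on KO 4 and 19.2 on KO 22, against 21.2 on WT. Sparc and Lamb1, at mean differences of 0.08 and 0.14, made up a large part of these sums. In intensity before scaling, Sparc had 7402 on KO 4, 6450 on KO 22 and 5976 on WT. Lamb1 had 2719, 2504 and 2169, and the sums of all 15 were 14319, 12405 and 13229. Cubn, the endocytic receptor cubilin, was the only one of the 15 that limma called (-3.46, adjusted p = 0.0347). Foxa2 and Sox17, endoderm transcription factor genes, had -1.63 and -1.36, and the laminin gene Lama1 had -1.24 (limma adjusted p = 0.082, 0.0743 and 0.091). These are values of the brightest probe. With the mean of probes, Lama1, which has 2 probes, had only -0.42, and Sox17, which has 4, had -1.51.

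Factors of DNA and histone H3K9 methylation were set beside the Rhox genes. Over all genes 38% were higher and 45.5% lower on both KO arrays. Among these factors only Tet1 was at least 2-fold lower on both KO arrays, and 0 were at least 2-fold higher. Of 13 tested, 10 were lower on both KO arrays and 1 higher, limma called 0, and 4 lower had an unadjusted p below 0.05. The targeted gene Tet1 is itself counted among the 13, the 10 and the 4. Dnmt3a, a de novo methyltransferase, had an intensity of 1498 and 1091 on KO 4 and KO 22, against 2572 on WT. Its difference of -1.13 did not pass (limma adjusted p = 0.106), and of the 13 genes only Tet1 differed more. The methyltransferase cofactor Dnmt3l and the heterochromatin corepressor Trim28 had -0.40 and -0.48, or 0.13 and 0.036 with normexp background correction (limma adjusted p = 0.133 and 0.115 as reported). Normexp without the 8 WT spots gave -0.41 for Dnmt3l and -0.51 for Trim28. A list of germline genes known elsewhere to be silenced by DNA methylation was read well above background on all 3 arrays in its 14 tested members. Among these 14, only Slc25a31 was at least 2-fold lower on both KO arrays, and 0 were at least 2-fold higher. Of these, 10 were lower on both KO arrays and 2 higher, limma called 0, and 6 lower had an unadjusted p below 0.05. Slc25a31, which encodes a testis ADP/ATP carrier, had -1.25, and Hormad1, a meiotic chromosome axis gene, had -0.77 (limma adjusted p = 0.0856 and 0.102). Tex101, a germ cell surface protein gene, had -0.73, and Mael, a piRNA pathway gene, had -0.64 (limma adjusted p = 0.101 and 0.105). Of 2 reported targets of Rhox5, Unc5c was not well above background, and Ins2, an insulin gene, had -0.96 (limma adjusted p = 0.0973).

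Fibroblast markers, which could come from feeder cells, differed between the KO arrays. Their median over 15 genes was 0.74 on KO 4 and -0.08 on KO 22 relative to WT, and 5 were higher and 1 lower on both KO arrays. Their summed level was 69.3 on KO 4 and 53.3 on KO 22, against 44.7 on WT, but Tagln, Acta2 and Vim were a large part of these sums. In intensity before scaling, Tagln had 19585 on KO 4, 12006 on KO 22 and 5090 on WT. Acta2 had 10406, 8718 and 8855, and Vim 8928, 7097 and 7281, at mean log2 differences of -0.02 and 0.003. The sums of all 15 were then 49747, 34384 and 27893. The log2 values of Rhox5, Rhox6 and Rhox9 on KO 4 minus KO 22 were -0.04, -0.37 and -0.32, and the part of feeder RNA in them was not tested. None of the 6 Rhox genes was 2-fold apart between the KO arrays, where 0.774% of all genes were at least 2-fold higher on KO 4 and 0.644% at least 2-fold lower. Tagln, an actin-binding protein gene, had 1.47 (limma adjusted p = 0.12), and Col1a1, Col1a2 and Col5a1 had 0.67, 0.57 and 0.85 (adjusted p = 0.36, 0.427 and 0.182). The Y-linked transcripts Ddx3y and Eif2s3y were lower in KO, with Ddx3y at least 19.6-fold lower and Eif2s3y at -5.63 (limma adjusted p = 0.0347 each). Kdm5d and Uty, also Y-linked, were not well above background on any array, WT included, and were not tested. The X-linked partners Ddx3x and Kdm5c had -0.24 and -0.32 (limma adjusted p = 0.272 and 0.155), or 0.26 and 0.10 with normexp background correction, and Xist, the X-inactivation RNA, was not well above background on any array. Normexp without the 8 WT spots gave -0.27 for Ddx3x and -0.33 for Kdm5c. Sex chromosome content and genotype cannot be told apart in these samples.

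**Figure D4:**
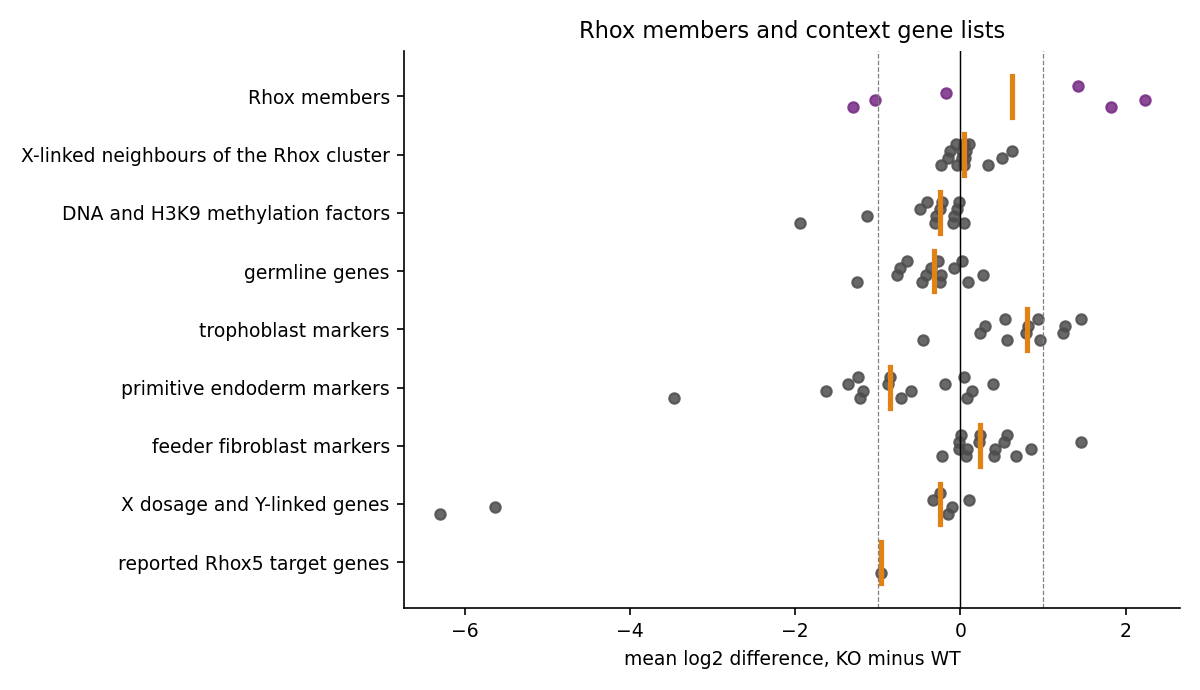
Mean log2 difference between KO and WT for each tested gene of the Rhox group and of the context lists, with orange bars at the list medians and dashed lines at 2-fold. The points of Ddx3y, at the left end of the X and Y group, are measured values of a gene that was not well above background on both KO arrays. The trophoblast median is 0.81 and the primitive endoderm median -0.85.

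**Figure D5:**
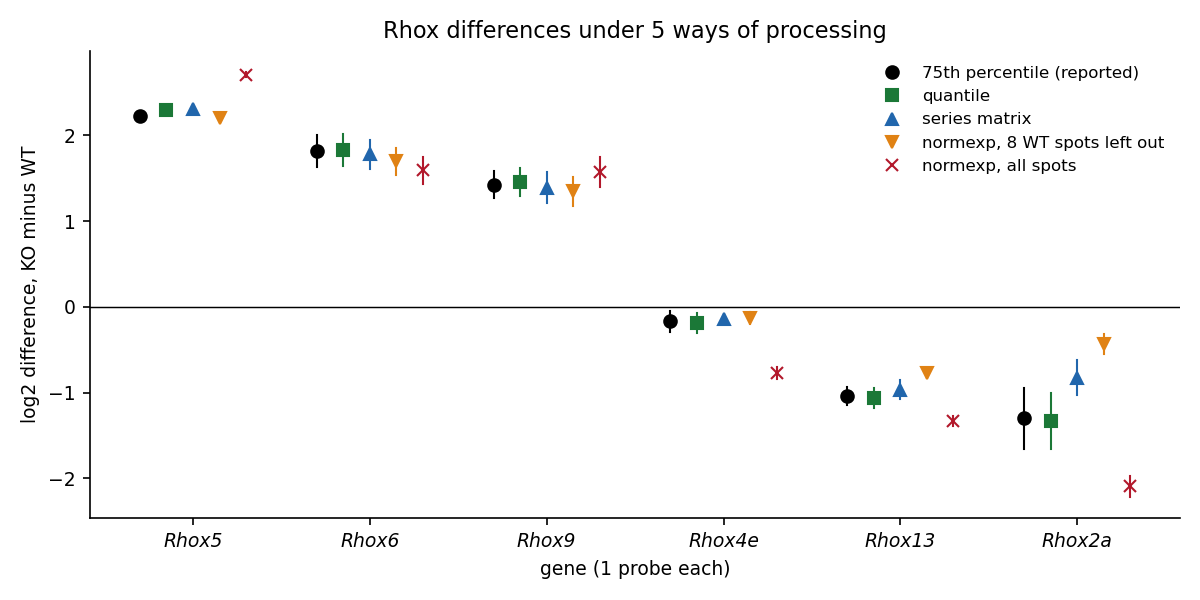
Mean log2 difference of each Rhox gene between KO and WT under 5 ways of processing, with lines that join the KO 4 and KO 22 values. Rhox5, Rhox6 and Rhox9 stay above 1 and Rhox13, Rhox2a and Rhox4e stay below 0 in each of the 5.

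The processing moved the size of these differences and in no case their direction. The mean difference ran from 2.21 to 2.71 for Rhox5, from 1.59 to 2.00 for Rhox6 and from 1.27 to 1.58 for Rhox9 over 4 other ways of processing and without either KO array. It ran from -1.34 to -0.77 for Rhox13, from -2.09 to -0.43 for Rhox2a, with its dim KO 4 spot, and from -0.77 to -0.05 for Rhox4e. The 3 genes that were more than 2-fold higher on both KO arrays were so in each of these settings.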

How the data were processed

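RNA of 3 samples was hybridised to Agilent 1-colour arrays on 1 slide. The authors deposited scanner files whose spot intensity values were made with Feature Extraction 10.1.1.1, per the file headers, background-subtracted and detrended within the array, with surrogates for dim values and no scaling between arrays. The deposited series matrix is on a log2 scale, and each of its columns has a median of 5.52. How its background was treated is unknown. The submitters' processing notes name limma.

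Here, processed intensity was taken to log2 and set relative to the 75th percentile of its array, without outlier-flagged spots (67 to 86 an array). Of 41174 probes 32737 (79.5%) were matched to the RefSeq table of GRCm38.p6 by accession, symbol or synonym, and that table served for names, chromosomes and order only. Probes well above background on at least 1 array were tested, the brightest probe standing for its gene. KO was set against WT by limma 3.58.1 under R 4.3.3 (lmFit, eBayes, Benjamini-Hochberg over 17710 genes, threshold 0.05), with 1 residual degree of freedom. A gene dim on every KO array has only a bound, against the higher of its own value and the lowest value well above background. The steps were tested on simulated arrays. The alternatives were 2 normexp settings (offset 50), quantile normalization, the series matrix, 2 filters, the mean of probes, an intensity trend and leaving out each KO array.

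The members and gene lists were chosen with earlier results of these data known. Named are every Rhox probe, up to 4 genes of each other list by size of the difference plus any that limma called, the 5 genes nearest Rhox5, and Tet1. Pou5f1, Sox2 and Nanog were added after their values were seen.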

Additional observations from a re-analysis of the deposited data

How the results depend on the processing

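Limma called 63 of 17710 genes and 3 of the 92 context genes as reported. Normexp background correction gave 13844 and 73, normexp without 8 WT spots dimmer than their own background 3267 and 38, the series matrix values 969 and 21, a filter on all 3 arrays 906 and 21, an intensity trend 3372 and 35, and no filter 0 of 27653 and 0 of 103 (5969 and 44 at an unadjusted p below 0.05). Of all genes 533 were at least 2-fold apart on both KO arrays. That count was 5760 with normexp, 109 without the 8 spots, 289 in the series matrix, 283 with the filter on all 3 arrays, 906 without a filter and 811 to 867 with 1 KO array left out. Among the context genes it was 14, against 30 with normexp and 8 without the 8 spots, and 17 to 20 with 1 KO array left out. Normexp with all spots moved the median of all genes from -0.03 to -0.20 and turned Cdx2 to -0.081, Ddx3x to 0.26, Dnmt3l to 0.13, Eomes to -0.75, Hand1 to -1.38, Kdm5c to 0.10, Slc25a43 to -0.63 and Trim28 to 0.036. With normexp without the 8 WT spots the median of all genes was -0.05, and each of these genes had the sign reported. Cdx2, Eomes, Hand1 and Slc25a43 then had 0.70, 0.72, 0.44 and 0.43. Ddx3x, Dnmt3l, Kdm5c and Trim28 had -0.27, -0.41, -0.33 and -0.51. Why leaving out these spots changed the values was not tested. The Rhox genes at least 2-fold higher on both KO arrays numbered 3 in each setting, and those at least 2-fold lower 0, but 2 with normexp, 1 with quantile normalization and 1 without either KO array. No paired analysis was possible because KO and WT share no replicate number.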

Other observations

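Homeobox genes other than the Rhox genes were picked by their array description after the data had been seen. Of 136 such genes 75 were tested. Of these, 2 (2.67%) were at least 2-fold higher and 1 (1.33%) at least 2-fold lower on both KO arrays. Over all genes these shares were 1.45% and 1.56%. The median difference of the 75 was 0.04. Limma called 0 of them. At an unadjusted p below 0.05 there were 11 higher and 9 lower. Dmbx1, a homeobox gene of the developing brain, had an intensity of 99.7 and 96 on KO 4 and KO 22, against 36.1 on WT (limma adjusted p = 0.0856). Cdx4, an X-linked caudal-type homeobox gene, had 15.9 and 8.86 on KO 4 and KO 22, against 2.18 on WT, and was well above background on 1 array. It is 1 of the 2 genes counted as higher, though its fold is uncertain because it was dim on the other arrays. Hoxb13 had 29.1 and 32.6 on KO 4 and KO 22, against 95.2 on WT (limma adjusted p = 0.0973).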
